A study of Mus musculus with 10 samples.

Results

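The 9 genes described here carry dopamine through its life in the ventral midbrain, from synthesis to breakdown. They were taken by symbol from the 18464 genes of the deposited table, and all 9 were present: Th and Ddc for synthesis, Gch1, Pts and Qdpr for the tetrahydrobiopterin cofactor, Slc18a2 and Slc6a3 for transport, and Maoa and Maob for degradation. PolyA RNA was sequenced from the ventral midbrain (SNpc/VTA, the substantia nigra and the ventral tegmental area) of naive Aldh1l1-NuTRAP mice. The NuTRAP construct tags ribosomes in cells in which the Aldh1l1 promoter is active, mostly astrocytes in brain, and affinity purification of the tagged ribosomes collects the RNA they hold. All 10 libraries come from this strain and region. There were 5 input libraries, labelled as cell types of the central nervous system, and 5 purified libraries, labelled astrocytes and called the astrocyte fraction here. Each input library shares a title number (88, 92, 976, 981 or 982) with an astrocyte fraction library. The age and sex of the mice are not given, nor whether a number stands for 1 animal, so the p-values reflect only how far these libraries spread, which may be technical.

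Dopamine neurons convert tyrosine to L-DOPA with tyrosine hydroxylase and L-DOPA to dopamine with aromatic amino acid decarboxylase. Tyrosine hydroxylase consumes tetrahydrobiopterin, which is built from GTP and recycled after each round. The vesicular monoamine transporter loads dopamine into vesicles, and the dopamine transporter, a direct target of cocaine and methamphetamine, takes it back from outside the cell. Monoamine oxidases on the outer mitochondrial membrane degrade it, in neurons and in glia. Comparing the fraction with the input shows, for each step, whether its RNA was higher or lower relative to the other RNA of the library. The amount of RNA recovered with the tagged ribosomes is not given by these values.

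The data divided the pathway. Transcripts of synthesis, vesicle loading and reuptake were about 5 to 7 times lower in the astrocyte fraction than in the input, as was Gch1, the entry enzyme of cofactor synthesis. Pts, Maoa and Maob were 2.59, 2.66 and 4.05 times higher, and Qdpr was 1.76 times lower. All 9 genes passed the test, 3 higher and 6 lower, at a Benjamini-Hochberg adjusted p under 0.05 in edgeR's quasi-likelihood test over 17672 genes. Calls were common in this comparison: 70.6% of all genes tested were called, 33.1% higher and 37.5% lower. The split was 5858 higher against 6625 lower, and 4293 against 8317 when libraries were scaled to total counts only. The groups did not overlap for any of the 9 genes, and they did not overlap for 58.2% of all genes tested. The median log2 fold change was -2.31 for the 9 genes and -0.06 for all genes tested.

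The promoters of Th, Ddc, Slc18a2 and Slc6a3, 4 of the 5 genes lowered about 5 to 7 times, are shown because these transcripts move together from library to library. That of Maoa stands beside them as a gene of the opposite direction, and that of Gch1, the other lowered gene, is not printed. Each window runs from 250 bases before to 50 bases after a RefSeq transcript start in the build GRCm38.p6, 5′ to 3′ on the gene's strand. Of the 9 genes, 8 have a window in the RefSeq table used. Capitals mark TGACGTCA, the cyclic AMP response element, in Th and Slc18a2, AAAGGTCA, the NBRE half-site bound by Nr4a2 and its relatives, in Ddc (on the opposite strand, so that TGACCTTT is printed), and TGACG, the core of the cyclic AMP response element, in Maoa. Both strands were searched. The windows lie at chr7:142899946-142900245 (minus strand, Th), chr19:59260628-59260927 (plus strand, Slc18a2), chr11:11898095-11898394 (minus strand, the upstream of 2 windows of Ddc), chr13:73536497-73536796 (plus strand, Slc6a3) and chrX:16619448-16619747 (plus strand, Maoa).
Th: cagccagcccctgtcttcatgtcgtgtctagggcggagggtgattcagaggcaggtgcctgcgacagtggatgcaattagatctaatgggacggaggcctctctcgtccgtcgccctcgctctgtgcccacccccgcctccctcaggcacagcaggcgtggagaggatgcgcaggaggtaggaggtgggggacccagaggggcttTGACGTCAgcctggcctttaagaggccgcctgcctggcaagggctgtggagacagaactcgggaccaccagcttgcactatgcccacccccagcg
Slc18a2: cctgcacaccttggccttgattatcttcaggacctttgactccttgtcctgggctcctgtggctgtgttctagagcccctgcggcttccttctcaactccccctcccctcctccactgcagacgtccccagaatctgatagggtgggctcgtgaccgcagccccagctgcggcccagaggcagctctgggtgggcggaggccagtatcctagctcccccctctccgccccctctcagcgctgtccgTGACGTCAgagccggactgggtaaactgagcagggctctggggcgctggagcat
Ddc: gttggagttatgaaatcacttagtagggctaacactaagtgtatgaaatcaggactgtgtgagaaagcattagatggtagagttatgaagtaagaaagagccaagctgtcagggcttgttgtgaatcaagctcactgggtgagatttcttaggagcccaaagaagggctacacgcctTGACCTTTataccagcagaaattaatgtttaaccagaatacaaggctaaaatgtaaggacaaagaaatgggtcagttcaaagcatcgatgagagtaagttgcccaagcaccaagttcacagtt
Slc6a3: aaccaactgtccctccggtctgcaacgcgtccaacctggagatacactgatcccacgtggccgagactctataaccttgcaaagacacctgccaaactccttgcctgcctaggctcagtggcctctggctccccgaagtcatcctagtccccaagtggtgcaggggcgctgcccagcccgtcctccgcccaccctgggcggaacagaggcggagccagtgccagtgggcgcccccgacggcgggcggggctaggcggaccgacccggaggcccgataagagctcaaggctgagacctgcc
Maoa: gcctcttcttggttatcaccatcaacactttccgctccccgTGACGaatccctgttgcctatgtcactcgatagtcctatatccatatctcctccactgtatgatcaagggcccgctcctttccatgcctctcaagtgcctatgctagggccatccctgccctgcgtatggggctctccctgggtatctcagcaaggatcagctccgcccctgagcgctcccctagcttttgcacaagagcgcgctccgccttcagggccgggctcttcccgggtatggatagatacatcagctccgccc

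The full element TGACGTCA was present in 2 of the 8 genes searched, Th and Slc18a2. It begins 45 bases before the RefSeq start used for Th and 4 bases before the one used for Slc18a2. It occurs in 1.79% of the 32851 windows of all genes. The NBRE occurs in 1.51% of windows and was found only in Ddc among the 8 genes searched, 73 bases before the upstream start. The downstream Ddc window (chr11:11890359-11890658, not printed) held no NBRE. The Th window lies inside the annotated gene, whose upstream end is at 142931128. Which start of Ddc or Th was in use in these libraries was not tested. The core TGACG, which is part of the full element, occurs in 20.8% of windows and was also found in Gch1 and Maoa. TAATCC, a motif of PITX factors, occurs in 7.06% of windows and was found in 0 of the 8 genes. TATAAA, the letters of the TATA box, occurs on either strand in 13.6% of windows. It was found in the upstream Ddc window and in Gch1, in both only on the opposite strand, as TTTATA. None of the 5 motifs was present in the Slc6a3 window. A match or its absence describes the letters of the window and no more.

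Depth and the makeup of the libraries set the frame for the values below. Totals of expected counts ran from 21812193 to 30878894 in the input and from 24479136 to 26924406 in 4 astrocyte fraction libraries, with 3845554 in the astrocyte fraction library 92. All 16 astrocyte markers were higher in the fraction (median 3.07 on the log2 scale), and all 16 pan-neuronal, 12 oligodendrocyte and 10 microglia markers were lower, with medians of -2.27, -3.72 and -4.23. Vascular lists were mixed: of 8 endothelial markers 4 were lower and 4 not called (median -0.34), and of 8 mural and fibroblast markers 5 were lower, 1 was not called and 2 were higher, Pdgfrb (1.35) and Col1a2 (1.28). Those 2 rises are close in size to the rises of Pts and Maoa. The summed mural and fibroblast level was 89.1 to 116 CPM in the input and 90.04 to 128 CPM in the fraction, and the part of these cells in the values of the genes that rose was not tested. None of the 16 pan-neuronal and 12 dopamine neuron markers was at 0 in any fraction library. In CPM, read counts scaled to the library size after TMM normalization, the summed pan-neuronal level was 2306 to 2899 in the fraction and 9779 to 11142 in the input. The summed level of the 12 dopamine neuron markers, which exclude the 9 genes, ran from 340.5 to 1078 CPM in the input and from 75.6 to 204 CPM in the fraction. The part of neuronal RNA in the values of the fraction was not tested. The libraries numbered 976 and 982 stood apart, with choroid plexus RNA (Ttr at 2965 and 604 CPM in the input, at most 2.70 CPM in the other inputs, and 11036 and 2312 CPM in the fraction, at most 11.5 CPM in the other fraction libraries), more Tph2, a gene of serotonin neurons (30.7 and 6.48 CPM, at most 1.49 CPM in the others) and the lowest dopamine neuron marker sums. In bulk samples, fewer cells of a type and less RNA per cell cannot be told apart.

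Th, which encodes tyrosine hydroxylase, the rate-limiting enzyme of dopamine synthesis (ENSMUSG00000000214, mm10 chromosome 7, 142892752 to 142931128), varied widely between input libraries. Its input level was 161 CPM in 88, 229 in 92, 65.5 in 976, 310 in 981 and 75.6 in 982. In the astrocyte fraction it was 31.99 CPM in 88, 32.3 in 92, 11.5 in 976, 59.0 in 981 and 12.9 in 982. The highest fraction library lay just below the lowest input library, and the order of the numbers was the same in both groups. Means were 168 ± 104 CPM for the input and 29.5 ± 19.3 CPM for the fraction (SD, n = 5). The fitted log2 fold change was -2.51 with an SE of 0.62 (adjusted p = 0.00487). Each SE given with a fold change was computed from the 2 group means of log2 CPM.

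Ddc, which encodes aromatic amino acid decarboxylase, the enzyme that also makes serotonin (ENSMUSG00000020182, chromosome 11, 11814101 to 11898144), had input levels of 137, 190, 90.04, 292 and 77.4 CPM in 88, 92, 976, 981 and 982. The fraction libraries of the same numbers held 26.3, 37.6, 13.6, 42.1 and 13.9 CPM. Again 981, 92 and 88 were high and 976 and 982 low in both groups. The log2 fold change was -2.59 ± 0.49 (adjusted p = 0.000869).

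**Figure D1:**
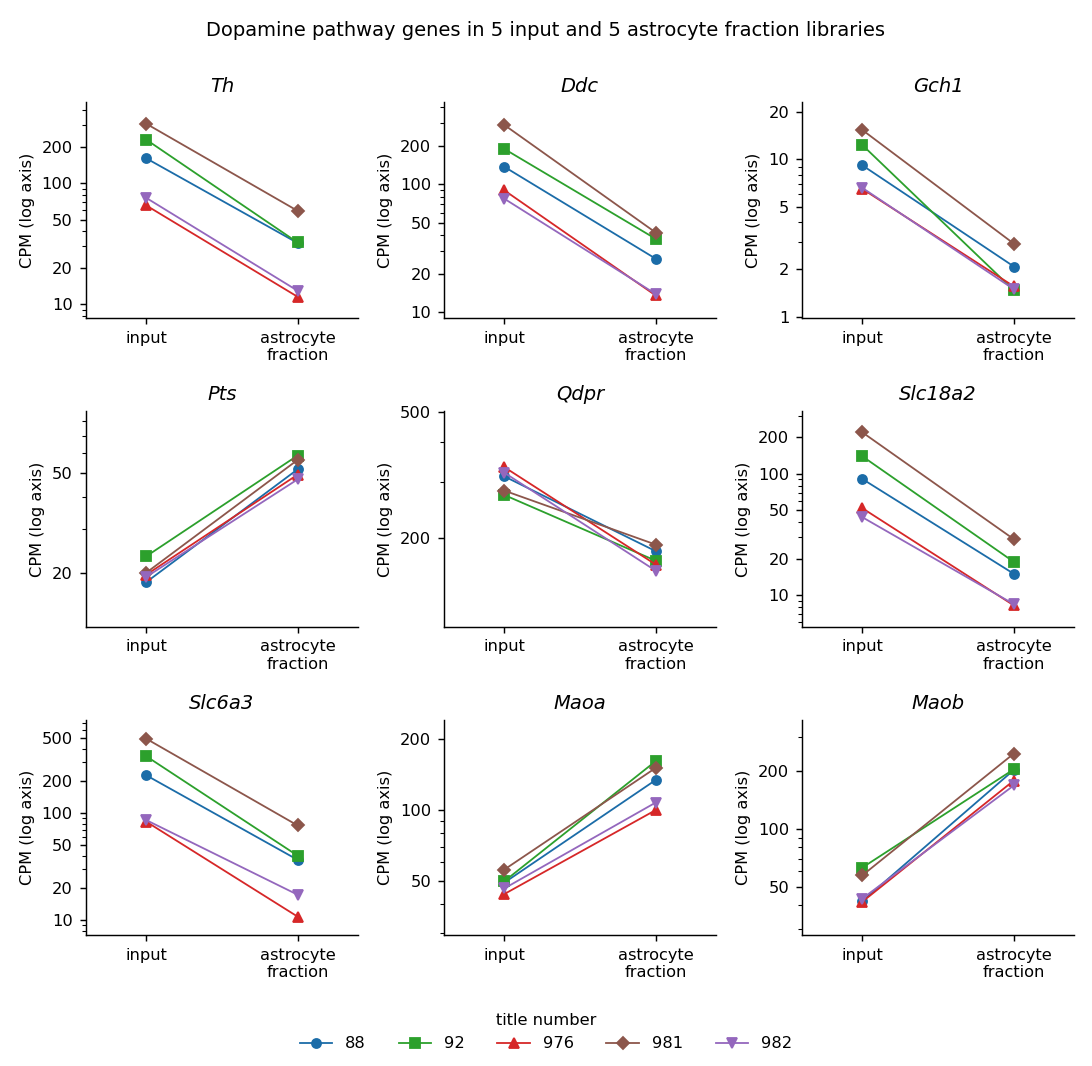
Level of each of the 9 genes in CPM (log axis, scaled per panel) in the 5 input and 5 astrocyte fraction libraries, with a line joining the libraries that share a title number. Th, Ddc, Gch1, Slc18a2, Slc6a3 and Qdpr slope down and Pts, Maoa and Maob slope up in every number.

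Both transport genes behaved like Th. Slc18a2, the gene of the vesicular monoamine transporter VMAT2 (ENSMUSG00000025094, chromosome 19, 59260878 to 59296012), had input levels of 90.8, 140, 52.1, 220 and 43.9 CPM in 88, 92, 976, 981 and 982, while its fraction levels were 14.97, 18.8, 8.21, 28.9 and 8.41 CPM. Every fraction library lay below every input. Its log2 fold change was -2.80 ± 0.55 (adjusted p = 0.00149). Slc6a3, the gene of the dopamine transporter (ENSMUSG00000021609, chromosome 13, 73536747 to 73578672), had the widest spread of the 9 genes. Input levels were 226, 341, 83.6, 497 and 86.4 CPM and fraction levels 36.8, 40.2, 10.8, 76.97 and 17.4 CPM, in the same order of numbers. The largest and smallest inputs differed 5.94-fold, and the largest and smallest fraction libraries 7.10-fold. The log2 fold change was -2.77 ± 0.72 (adjusted p = 0.00652).

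Gch1, the gene of GTP cyclohydrolase, the entry and rate-limiting enzyme of tetrahydrobiopterin synthesis (ENSMUSG00000037580, chromosome 14, 47153895 to 47189413), was the least abundant of the 9 genes in CPM. Inputs 88, 92, 976, 981 and 982 held 9.17, 12.3, 6.49, 15.4 and 6.59 CPM, and the fraction libraries 2.08, 1.47, 1.56, 2.91 and 1.49 CPM. The fraction library 92 had only 5 counts, and its exact Poisson interval of 0.476 to 3.42 CPM at a level of 95% (counting error only) covers the other 4 fraction libraries. The log2 fold change was -2.31 ± 0.30 (adjusted p = 1.18e-05).

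For these 5 genes the level in the fraction followed the level in the input of the same number. The standard deviation of log2 CPM over libraries was 0.98 in the input and 0.996 in the fraction for Th, but 0.19 for the log2 ratio of fraction to input within a number. For Slc6a3 the 3 values were 1.16, 1.10 and 0.30, for Slc18a2 0.97, 0.78 and 0.22, and for Ddc 0.78, 0.77 and 0.21. Gch1 was the exception, with 0.55, 0.43 and 0.42, and its low count in library 92 enters the last value. Within numbers, the fraction held 17.5 ± 2.24% of the input CPM of Th, 17.3 ± 2.42% of Ddc, 15.6 ± 2.47% of Slc18a2, 15.3 ± 3.22% of Slc6a3 and 20.02 ± 4.93% of Gch1 (SD, n = 5). The share of Th was 19.9% in 88, 14.1% in 92, 17.5% in 976, 19.0% in 981 and 17.04% in 982. A 4.74-fold range of Th between inputs thus went with shares of the input that differed far less, and the low-Th numbers 976 and 982 lay between the others in their share.

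**Figure D2:**
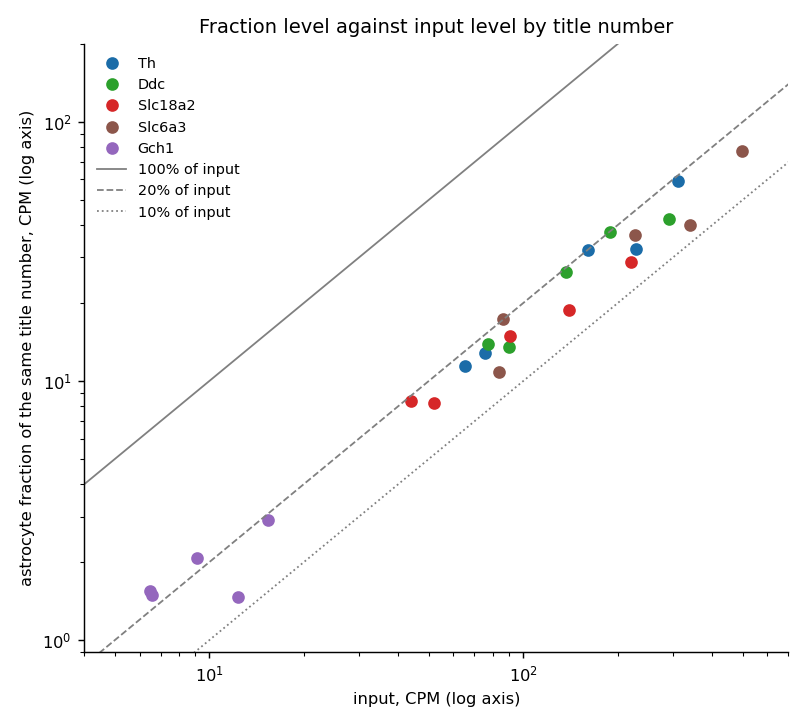
Level in the astrocyte fraction against level in the input library of the same title number, in CPM on log axes, for Th, Ddc, Slc18a2, Slc6a3 and Gch1, 5 points each; grey lines mark 100%, 20% and 10% of the input. The points of all 5 genes lie between 11.8% and 24.0% of the input.

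Gene by gene, the highest input exceeded the lowest 4.74-fold for Th, 3.77-fold for Ddc, 5.02-fold for Slc18a2 and 5.94-fold for Slc6a3. The same ratio was 1.12 to 1.90 for the 16 pan-neuronal markers and 1.999 to 7.13 for the 12 other dopamine neuron markers. It was 1.68 to 2.15 for 5 of 6 markers of GABA and glutamate neurons and 5.48 for the other, Slc17a7, so wide input spread was not limited to dopamine genes. The medians of the pan-neuronal and dopamine neuron lists differed 1.14-fold and 3.24-fold. Relative to the dopamine neuron markers in the same library, the standard deviation of log2 Th in the input was 0.31, that of Ddc 0.13, that of Slc18a2 0.25, that of Gch1 0.21 and that of Slc6a3 0.46. Without the numbers 976 and 982, Th had a log2 fold change of -2.37, Slc18a2 -2.71 and Slc6a3 -2.66 (adjusted p = 0.000698, 0.000974 and 0.00103). The choroid plexus and serotonin transcripts given above moved with the low dopamine levels of those numbers, and their part in the input spread was not tested.

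Ratios between genes of the same library do not depend on how libraries are scaled, and 9 such ratios between the genes were compared between groups with exact two-sided permutation tests of 5 against 5 libraries, whose smallest possible p is 0.00794. No ratio among the 4 dopamine neuron genes was called different between the groups. The log2 ratio of Ddc to Th was -0.02 ± 0.29 in the input and -0.04 ± 0.33 in the fraction (SD, n = 5, exact permutation p = 0.905, adjusted over the 9 ratios p = 0.905). Slc18a2 to Th differed by -0.17 ± 0.15 (SE), Slc6a3 to Th by -0.21 ± 0.12, Slc18a2 to Slc6a3 by 0.04 ± 0.21 and Gch1 to Th by 0.20 ± 0.37 on the log2 scale, with exact permutation p between 0.143 and 0.849. These standard errors and permutation tests did not use the title numbers. With errors of this size, that unpaired comparison could not detect smaller differences between groups. Within numbers, Slc18a2 to Th and Slc6a3 to Th were lower in the fraction in 4 of 5 and Gch1 to Th higher in 4 of 5. Exact sign-flip tests over the 5 numbers gave p = 0.25, 0.125 and 0.1875.

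Against markers of cell types, the same test was run on the level of each gene relative to the median marker of the same library, 36 values in all. Th relative to the pan-neuronal median differed by -0.28 ± 0.64 log2 units (SE) between fraction and input (exact permutation p = 0.643, adjusted over the 36 values p = 0.661). Between same-numbered libraries the SD of this difference was 0.28. In each of the 5 numbers Th, Ddc, Slc18a2 and Slc6a3 had a lower ratio to the pan-neuronal median in the fraction, and an exact sign-flip test over 5 numbers cannot give less than the p = 0.0625 it gave for each. Slc18a2 relative to the dopamine neuron markers differed by -0.46 ± 0.17 log2 units (exact permutation p = 0.0317, adjusted p = 0.0497). That call did not hold when any of 7 libraries was left out (inputs 88, 92, 976 and 981, fraction libraries 88, 976 and 982). The adjusted p was then 0.0745 to 0.0870. Against the dopamine neuron markers, Th, Slc18a2 and Slc6a3 were each lower in the fraction in 5 of 5 numbers (exact sign-flip p = 0.0625 for each). Ddc and Gch1 were lower in 4 of 5 (exact sign-flip p = 0.25 and 0.3125).

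The cofactor genes did not move as a unit. Pts, the gene of 6-pyruvoyltetrahydropterin synthase, which acts on the product of Gch1 (ENSMUSG00000032067, chromosome 9, 50521617 to 50528724), had input levels of 18.4, 23.3, 19.7, 20.04 and 19.3 CPM in 88, 92, 976, 981 and 982. In the fraction it was at 51.5, 58.4, 49.05, 56.1 and 46.98 CPM, above every input. The log2 fold change was 1.37 ± 0.08 (adjusted p = 2.89e-08). The log2 ratio of Pts to Gch1 rose from 1.09 ± 0.50 in the input to 4.79 ± 0.36 in the fraction (SD, n = 5), a 13.04-fold change of the ratio (exact permutation p = 0.00794, adjusted p = 0.0179).

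Qdpr, the gene of dihydropteridine reductase, which returns the spent cofactor to its active form (ENSMUSG00000015806, chromosome 5, 45434021 to 45450236), was the most abundant of the 9 genes per length in both groups. Input levels were 313, 273, 335, 282 and 321 CPM in 88, 92, 976, 981 and 982, and fraction levels 182, 170, 165, 191 and 158 CPM. Its log2 fold change of -0.81 ± 0.07 (adjusted p = 9.14e-07) lay between the median of pan-neuronal markers and that of astrocyte markers. The fraction held 57.3 ± 8.06% of the input level within numbers. Qdpr shares 18.6% of its exon bases with the predicted gene Gm42413 on the opposite strand, and the strand setting of the counting is not given in the sources used here.

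Relative to the marker medians of the same library, Qdpr stood 1.43 ± 0.13 log2 units (SE) higher against pan-neuronal markers in the fraction than in the input, 2.88 ± 0.14 higher against oligodendrocyte markers with a difference of -3.91 ± 0.10 against astrocyte markers, each with exact permutation p = 0.00794 and adjusted p = 0.0136. In the input, its distance to the oligodendrocyte median varied least of these, by 0.03 (SD of log2, n = 5), against 0.18 for both the pan-neuronal and the astrocyte medians. In the fraction, its distance to the oligodendrocyte median varied most of these, by 0.31, against 0.23 for the pan-neuronal and 0.13 for the astrocyte median. Its ratio to Pts fell by 2.19 on the log2 scale and its ratio to Gch1 rose by 1.51 (exact permutation p = 0.00794, adjusted p = 0.0179 for both).

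Both monoamine oxidase genes, neighbours on chromosome X, were higher in the fraction. Maoa, whose enzyme prefers serotonin and noradrenaline (ENSMUSG00000025037, 16619698 to 16687818), had input levels of 49.1, 49.8, 43.9, 55.8 and 46.4 CPM in 88, 92, 976, 981 and 982. Its fraction levels were 134, 162, 100.05, 151 and 108 CPM. Fraction libraries 976 and 982 were the lowest of their group. The log2 fold change was 1.41 ± 0.15 (adjusted p = 5.98e-07).

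Maob, whose enzyme is the prevalent form in glia (ENSMUSG00000040147, 16709282 to 16817366), rose more. Inputs held 42.005, 62.8, 41.7, 57.3 and 43.3 CPM and fraction libraries 203, 205, 179, 247 and 169 CPM in the same order of numbers. Its log2 fold change was 2.02 ± 0.16 (adjusted p = 5.10e-08). The log2 ratio of Maob to Maoa was -0.0045 ± 0.21 in the input and 0.62 ± 0.18 in the fraction (SD, n = 5), a difference of 0.63 ± 0.13 (SE, exact permutation p = 0.00794, adjusted p = 0.0179). The ratio was higher in the fraction in 5 of 5 numbers, but in number 92 by the least, from 0.336 to 0.339.

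**Figure D3:**
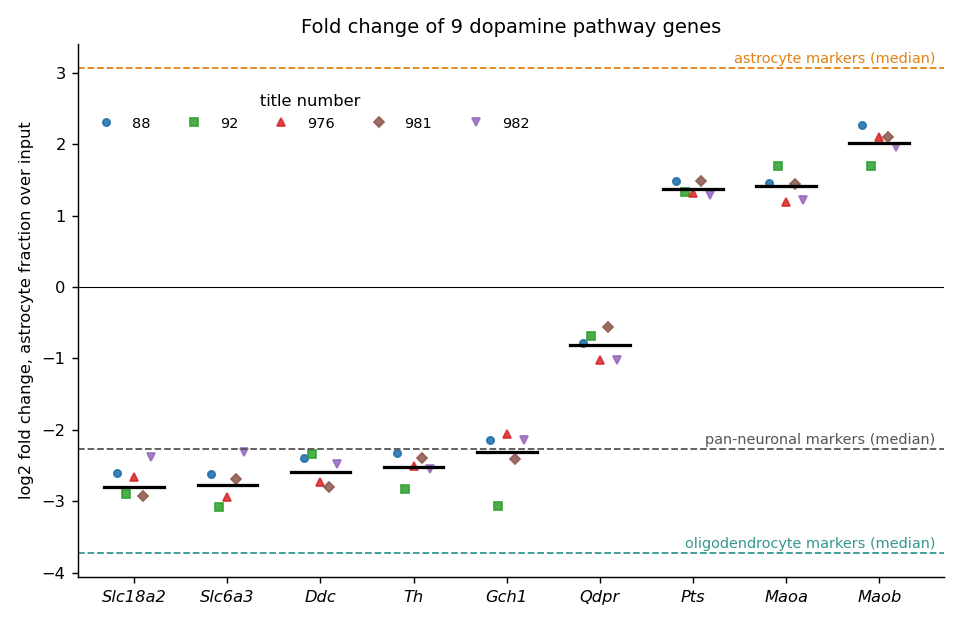
Log2 fold change of the 9 genes, astrocyte fraction over input: points are the log2 ratios within title numbers, black bars the fitted values, and dashed lines the median log2 fold changes of 3 marker lists. Th, Ddc, Slc18a2, Slc6a3 and Gch1 lie near the pan-neuronal median of -2.27, Qdpr between it and 0, and Pts, Maoa and Maob above 0 but below the astrocyte median of 3.07.

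None of the 9 genes rose as much as the astrocyte markers. All 9 were lower in the fraction relative to the astrocyte median of the same library, with differences of -1.07 ± 0.16 log2 units (SE) for Maob, -1.70 ± 0.11 for Maoa, -1.72 ± 0.10 for Pts and -5.62 ± 0.58 for Th (each exact permutation p = 0.00794, adjusted p = 0.0136). Against oligodendrocyte markers, Gch1, Pts, Qdpr, Maoa and Maob were higher and the other 4 were not called. Those 4 were nevertheless higher in 5 of 5 numbers, Th by 1.17, Ddc by 1.15 and Slc6a3 by 0.96 log2 units and Slc18a2 by a mean between the last 2 values, with exact sign-flip p = 0.0625 for each, the smallest that test can give. Against pan-neuronal markers, Pts, Qdpr, Maoa and Maob were higher, Maob by 4.27 ± 0.18, and the other 5 were not called.

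Per kilobase of exon, the order of the 9 genes changed between the groups. In the input, Qdpr came at the top with 171 ± 14.6 CPM per kilobase (SD, n = 5), followed by Slc6a3 with 71.4 ± 50.99 and Th with 71.2 ± 43.9, which did not differ beyond their spread. Ddc followed with 35.2 ± 19.6, then Slc18a2 with 20.9 ± 13.9 and Maob with 17.7 ± 3.55, which overlapped, Maoa with 11.8 ± 1.07, Pts with 3.30 ± 0.305 and Gch1 with 1.60 ± 0.615. In the fraction Qdpr remained at the top with 96.9 ± 7.38, and Maob with 71.8 ± 10.9 and Maoa with 31.4 ± 6.42 came next. Th with 12.5 ± 8.15, Slc6a3 with 10.5 ± 7.48 and Pts with 8.59 ± 0.782 overlapped, and Ddc with 5.98 ± 2.95, Slc18a2 with 3.03 ± 1.64 and Gch1 with 0.304 ± 0.0986 were lowest. Per length, Maoa and Maob were each above Th in all 5 fraction libraries, and Th was above both in all 5 inputs.

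**Figure D4:**
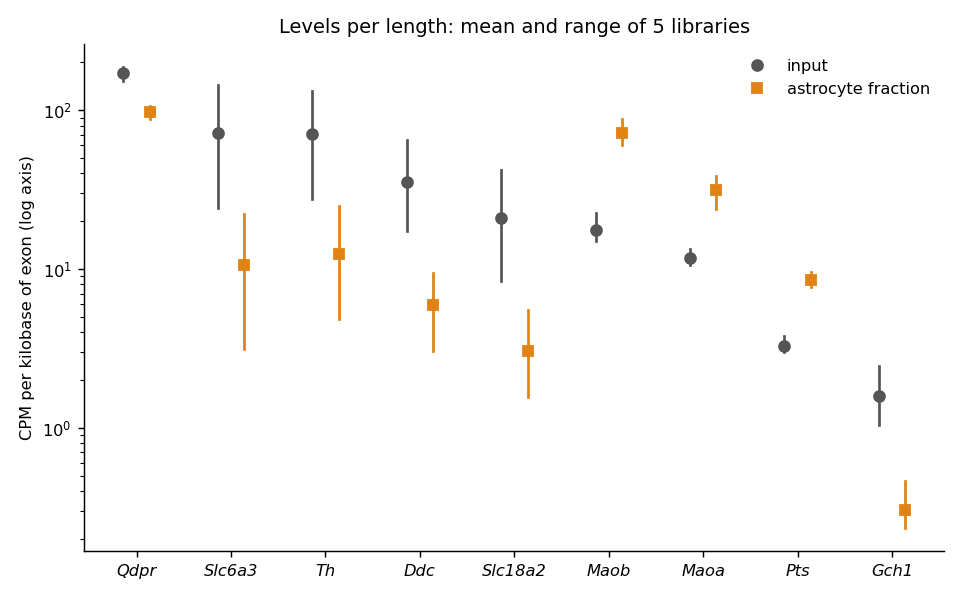
Level of each gene per kilobase of exon (CPM per kilobase, log axis) in input (circles) and astrocyte fraction (squares); symbols are means and lines the range of 5 libraries. Maob and Maoa lie between Slc18a2 and Pts in the input and directly under Qdpr in the fraction.

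Genes with the most similar profile over the 10 libraries were found by the root mean square difference of log2 CPM, each gene centred on its own mean, among 11370 genes with a mean of at least 5 CPM. The closest to Th were Slc10a4 (0.12), which encodes a vesicle protein of cholinergic and monoamine neurons, the GDNF receptor gene Ret (0.18), Slc6a3 (0.20) and Slc18a2 (0.23). The closest to Slc6a3 were Th (0.20), Slc10a4 (0.25), Ret (0.29) and Slc18a2 (0.30). The list of Maob held Cpne3 (0.15), Pdlim5 (0.15), Phka1 (0.15) and Cep85l (0.17), and that of Qdpr Haus8 (0.10), Otub1 (0.10), Pgam5 (0.10) and P4htm (0.10). The group difference enters this measure, so genes with a like fold change lie close.

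Other genes of the cofactor pathway also went both ways. Of 8 listed, 6 were tested: 2 were higher, 2 were lower and 2 did not pass. Their median on the log2 scale was -0.0184, and 0.56 without the numbers 976 and 982. Spr, whose sepiapterin reductase completes tetrahydrobiopterin, rose from 47.4 ± 5.48 to 101 ± 9.61 CPM (SD, n = 5; log2 fold change 1.09 ± 0.10, adjusted p = 3.65e-07). Pcbd2 (1.07) rose as well, whereas Pcbd1, the dehydratase that works beside Qdpr in recycling, fell from 21.6 ± 3.54 to 4.33 ± 1.24 CPM (log2 fold change -2.23 ± 0.24, adjusted p = 1.74e-07). Dnajc12, a co-chaperone of the aromatic amino acid hydroxylases, was called lower at -0.34 (adjusted p = 0.0172), but not without the input 981 (adjusted p = 0.0506), the fraction library 976 (0.115), the fraction library 982 (0.0543) or both numbers 976 and 982 (0.556). Tph2, the brain tryptophan hydroxylase gene, was not called (-1.61, adjusted p = 0.335) but passed with the number as a block (-1.68, adjusted p = 0.000540). Leaving out the input 976, its log2 fold change was 0.09. Gchfr, which encodes the feedback regulator of GTP cyclohydrolase, had means of 0.813 and 1.17 CPM and was not called (0.30, adjusted p = 0.562), and was called higher without the numbers 976 and 982 (1.44, adjusted p = 0.0149).

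Of 10 other transporter genes, 5 were tested, 2 of them higher, 2 lower and 1 not called. Slc3a2 and Slc7a5, the subunits of the large neutral amino acid transporter that carries tyrosine and L-DOPA, rose with log2 fold changes of 1.71 ± 0.10 and 0.84 ± 0.12 (adjusted p = 5.92e-09 and 1.30e-05). Slc7a8, the gene of a related transporter, fell by 1.796 on the log2 scale. Slc22a3, the gene of the organic cation transporter OCT3, was low and fell from 3.66 ± 0.915 to 0.685 ± 0.488 CPM (log2 fold change -2.52, adjusted p = 4.04e-05). Slc29a4, the gene of the plasma membrane monoamine transporter PMAT, was not called with all libraries (fitted log2 fold change 0.37, adjusted p = 0.765). Its difference of mean log2 CPM was -1.40 ± 1.23 (SE), opposite in sign to the fitted value. In the fraction Slc29a4 was at 154 CPM in 976 and 36.3 CPM in 982, the numbers with Ttr, and at 1.17 to 5.67 CPM in the other 3 libraries, against 21.1 to 29.3 CPM in the other 3 inputs. Without the numbers 976 and 982 it was lower, with a log2 fold change of -2.34 (adjusted p = 0.000168).

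Most other genes of catecholamine conversion and breakdown were higher in the fraction. Of 7 tested, 5 were higher and 2 lower with a log2 median of 2.02, and 4 were higher when libraries were scaled to total counts. Aldh2 and Aldh1a1, aldehyde dehydrogenase genes whose enzymes can clear the aldehyde that monoamine oxidase forms from dopamine, rose from 123 ± 12.7 to 561 ± 71.7 CPM and from 297 ± 77.9 to 1778 ± 181 CPM (SD, n = 5), with log2 fold changes of 2.19 ± 0.11 and 2.58 ± 0.18 (adjusted p = 1.05e-09 and 1.83e-08). The sulfotransferase gene Sult1a1 (2.27) and the renalase gene Rnls (2.02) rose too, Rnls from a low mean of 0.808 to 3.43 CPM. Rnls is counted here because it was on the list, and its part in catecholamine breakdown was not tested. Aldh1b1 (-1.84) and the aldose reductase gene Akr1b3 (-0.46) fell. Akr1a1, an aldehyde reductase gene, was called higher at 0.22 (adjusted p = 0.0427), but its direction turned when libraries were scaled to total counts (-0.0671).

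All 3 dopamine receptor genes in the table were lower. Drd2, the gene of the receptor that dopamine neurons carry themselves, fell from 49.1 ± 19.7 to 9.93 ± 3.63 CPM (SD, n = 5; log2 fold change -2.36 ± 0.35, adjusted p = 4.10e-05). Drd1 (-2.40) and Drd5 (-2.36) had input means of 4.56 and 4.52 CPM. Of the exon bases of Drd5, 48.6% are shared with the gene Gm26560 on the opposite strand, and the strand setting of the counting is not given. Drd5 had 0 counts in the fraction library 92, which allows up to 0.880 CPM. Of the 12 dopamine neuron markers, 11 were lower, 0 were higher and 1 did not pass, and the median was -2.17. The marker not called was Lmx1a, a transcription factor gene that reached 13.1 CPM in the fraction library 976, and all 12 were lower without the numbers 976 and 982.

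**Figure D5:**
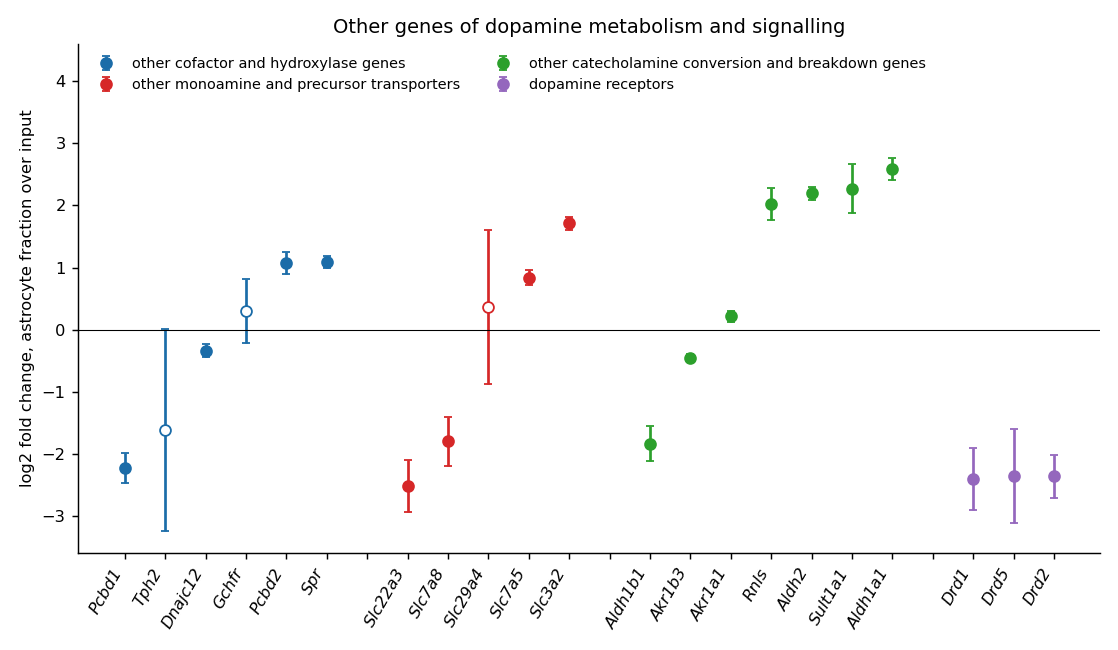
Log2 fold change, astrocyte fraction over input, of 21 other genes of dopamine metabolism and signalling, grouped by list; bars are SE of the difference of mean log2 CPM, and open symbols are genes that were not called. Breakdown genes such as Aldh1a1 (2.58) and Aldh2 (2.19) reach the highest values and the receptors lie near -2.4. For Slc29a4 the difference of mean log2 CPM was -1.40, opposite in sign to the drawn value of 0.37.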

How the data were processed

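The deposited table holds expected (estimated) counts and normalized log2 values for 18464 genes in 10 libraries, each made from 25 ng of RNA per the labels. The expected counts as deposited are not scaled by the authors, and the authors' log2 values are centred per gene. CASAVA 1.8, DESeq and mm10 are named without roles, per the submitters' processing notes. For the aligner, the counter and the strand setting, no source used here gives a name. All 18464 genes have at least 5 counts in every library of 1 or both groups, so genes below that were not analysed here.

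Rounded counts entered edgeR 4.0.16 (R 4.3.3) (TMM, filterByExpr with a minimum count of 10, robust quasi-likelihood, prior count 2, Benjamini-Hochberg over 17672 genes), after a check on simulated data. That check changed few genes, in both directions, so it does not cover scaling or error rates where calls are as common as here. CPM use TMM-scaled library sizes, and exon lengths come from GENCODE M21. Ratios within a library add 0.5 to each count. DESeq2 1.42.0 and limma 3.58.1 served as alternatives. Same-numbered libraries deviated together from their group means in all 5 pairs (correlations 0.189 to 0.493). The mean of different numbers was -0.079. Centring on group means makes it negative when same-numbered values are positive, so it is no independent baseline. The numbers were taken as pairs for values within numbers and sign-flip tests, although the input 982 correlated best with the fraction library 976. The main edgeR fit, the SE values and the permutation tests did not use the pairs.

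Named were the 9 genes, the genes of 4 pathway lists (some results are not reported here) and, for Th, Slc6a3, Maob and Qdpr, the 4 closest profiles. The genes and lists were chosen with earlier results of these data known.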

Additional observations from a re-analysis of the deposited data

Results flagged for a closer look

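In 60 groups of 5 libraries (30 genes, each in input and fraction), 6 held a library far from the other 4, its gap to the nearest of the others above 0.71 of the whole range. Chance alone gives this in about 1 group in 20 if values are independent and normally distributed. That was not tested for these CPM values, so the count is not read against this rate. None of the 6 concerned the 9 dopamine genes. Tph2 was at 30.7 CPM in the input 976, against 0.249 to 6.48 CPM in the other inputs. Slc29a4 was at 56.9 CPM in the input 976 (others 21.1 to 29.3 CPM) and at 154 CPM in the fraction library 976 (others 1.17 to 36.3 CPM). Slc3a2 was at 117 CPM in the input 92, against 95.8 to 100.3 CPM, and Sult1a1 at 8.26 CPM in the input 88, against 3.15 to 4.07 CPM. Rnls was at 1.76 CPM in the shallow fraction library 92, against 3.53 to 4.15 CPM.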

How the results depend on the processing

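All 9 genes kept their direction and their side of the threshold under each of 21 alternatives (189 values), with log2 fold changes between -2.97 and -2.17 for Th, -3.28 and -2.34 for Slc6a3, and 1.73 and 2.13 for Maob. The title number as a replicate block changed no call of the 9 genes, with Th at -2.50 (adjusted p = 7.79e-11), and among the other named pathway genes it changed only that of Tph2 (-1.68). Scaling to total counts moved the median of all genes from -0.06 to -0.34, with 4293 genes higher and 8317 lower, and turned Akr1a1 (-0.0671), whose call was also lost in 7 other alternatives. Slc29a4 turned with the block (-0.88), with limma on the authors' values (-1.46) and without 976 and 982 (-2.34), and ranged from -1.20 to 0.67 when single libraries were left out. The same leave-one-out range was -2.94 to 0.0923 for Tph2, and Gchfr turned without number 92 (-0.0376). Among ratios that were not called, leaving out single libraries gave -0.1235 to 0.1400 for Slc18a2 to Slc6a3, -0.0910 to 0.0985 for Ddc to Th, -0.0151 to 0.3510 for Gch1 to Th, -0.6343 to 0.0141 for Th against pan-neuronal markers and -0.2833 to 0.1024 for Gch1 against them (0.0130 with 2 added to each count). The call of Qdpr against dopamine neuron markers was lost without any of 7 libraries, and Ddc was called lower against them without the fraction library 92 (-0.44). The cause of these changes was not tested. Without 976 and 982, 3 against 3 libraries cannot reach the threshold in an exact test, so such ratios were values only. The fraction library 92 limits Gch1, with 5 counts.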
